A study of Mus musculus with 6 samples.

Results

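The neurogenic cascade of the developing cerebral cortex was followed through 6 genes, Pax6, Insm1, Eomes, Btg2, Gadd45g and Tbr1, of 19938 genes measured. They were chosen by name as transcription factors and cell cycle brakes that mark successive steps of cortical neuron production, and each was read from the only probe set annotated to its symbol alone. RNA was profiled on Affymetrix whole-transcript arrays in cells of C57BL/6J mouse brain, with 3 arrays of GFP+ cortical neural progenitors and 3 arrays of their RFP+ neuronal progeny. The cells were separated by fluorescence-activated sorting with a dual reporter, and no treatment or gene deletion is named in the labels. The labels give the cortex for the GFP+ cells and name only the brain for the RFP+ cells, so region and cell type cannot be told apart in this comparison. The sources used here give neither the promoters behind the reporters nor the age of the animals. They also do not say that replicates came from separate animals, so the tests set the difference against a spread between arrays that may be technical.

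In the embryonic cortex, radial glia along the ventricle express the paired-box homeodomain factor Pax6, which drives neurogenesis in part through proneural genes. Their daughters include intermediate progenitors, which switch on the T-box factor Eomes, also called Tbr2, with the help of the zinc finger repressor Insm1, and mostly divide to give neurons. Btg2, also called Tis21, is an antiproliferative gene known from progenitors that undergo neuron-producing divisions, and Gadd45g is a growth arrest and stress gene of cells about to leave the cycle. Postmitotic projection neurons then express Tbr1, a T-box factor closely related to Eomes that is needed for deep-layer identity.

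Of the 6 genes, 5 were higher in GFP+ progenitors and 1, Tbr1, was higher in RFP+ neurons. The GFP+ and RFP+ arrays did not overlap for any of the 6, and the same held for 43.9% of all genes tested (19.9% higher in GFP+ and 24.1% higher in RFP+). All 6 passed limma at an adjusted p under 0.05, against 30% of all genes (13.8% higher in GFP+ progenitors and 16.2% higher in RFP+ neurons). Pax6, Eomes, Btg2 and Gadd45g passed that threshold with a difference of at least 2-fold, as did 7.0% of all genes on the GFP+ side. On the RFP+ side Tbr1 met both conditions, as did 5.98% of all genes. Differences are GFP+ minus RFP+ of log2(intensity + 16) with the standard error (SE). A fold is 2 to the power of that difference, and the added 16 makes it smaller, most of all for dim genes. Because it comes from means of log values, a fold can also differ in either direction from the ratio of mean intensities. Sorted populations are bulk samples, so fewer cells of a type and less RNA per cell cannot be told apart.

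Promoter windows are shown for the T-box pair, which went in opposite directions, and for the growth-arrest pair, whose differences were nearly equal. Each is the 250 bases upstream of a transcription start in RefSeq (build GRCm38.p6), written 5′ to 3′, with capitals for matches to CANNTG (the E-box), CCAAT (the CCAAT box) and TATAAA (the TATA box).
Eomes, chr9:118477939-118478188 (+ strand): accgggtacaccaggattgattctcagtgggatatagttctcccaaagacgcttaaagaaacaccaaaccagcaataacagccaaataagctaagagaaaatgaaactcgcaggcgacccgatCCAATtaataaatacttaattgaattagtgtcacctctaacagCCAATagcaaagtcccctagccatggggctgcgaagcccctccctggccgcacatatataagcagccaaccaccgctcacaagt
Tbr1, chr2:61804203-61804452 (+ strand): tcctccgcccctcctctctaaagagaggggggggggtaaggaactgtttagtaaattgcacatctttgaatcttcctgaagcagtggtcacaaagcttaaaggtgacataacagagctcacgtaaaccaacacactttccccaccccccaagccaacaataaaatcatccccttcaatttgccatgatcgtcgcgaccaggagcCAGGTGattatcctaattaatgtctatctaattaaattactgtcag
Btg2, chr1:134079156-134079405 (- strand): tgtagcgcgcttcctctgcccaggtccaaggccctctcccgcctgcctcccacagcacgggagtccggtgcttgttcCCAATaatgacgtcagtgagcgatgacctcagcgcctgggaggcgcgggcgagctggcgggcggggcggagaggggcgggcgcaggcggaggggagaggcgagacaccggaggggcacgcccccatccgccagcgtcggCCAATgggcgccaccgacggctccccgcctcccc
Gadd45g, chr13:51846425-51846674 (+ strand): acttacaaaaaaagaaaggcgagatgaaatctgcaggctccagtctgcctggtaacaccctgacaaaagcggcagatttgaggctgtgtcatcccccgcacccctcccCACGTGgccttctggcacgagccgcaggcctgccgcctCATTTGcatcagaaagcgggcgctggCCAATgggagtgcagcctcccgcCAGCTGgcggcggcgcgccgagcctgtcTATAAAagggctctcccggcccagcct
The Tbr1 start used by this table lies inside the annotated gene, downstream of its outermost start.

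Windows of 300 bases, 250 before to 50 after a start, were searched on both strands for 6 short motifs, and 5 of the 6 genes had a window. Pax6 had 2 windows, for different starts. The proneural E-box CAGATG, which is itself a CANNTG, the T-box core GGTGTGA and the RBPJ core GTGGGAA had no match in any of the 6 windows. Among all 32851 promoter windows, 17.2% held CAGATG, 3.98% held GGTGTGA and 6.38% held GTGGGAA. An E-box of any kind (CANNTG) was found 3 times in the Gadd45g window, and 1 time each in the Tbr1 window and in one Pax6 window. It occurred in 72.3% of all windows, and the Eomes and Btg2 windows had no match. The CCAAT and TATAAA motifs were added after the windows had been read. CCAAT was found in 5 of the 6 windows, including 2 matches each in the Eomes and Btg2 windows, against 37.4% of all windows, and in the Tbr1 window its match lay 8 bases past the start. TATAAA was found in the Gadd45g window only, 27 bases before the start, against 13.6% of all windows. The C+G content was 72.0% in the Btg2 window and 62.3% in the Gadd45g window, against 47.3% in the Eomes window and 46.0% in the Tbr1 window. A match describes letters in the sequence, and binding was not measured here.

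Pax6 (probe set 10474312), the radial glial factor at the head of the cascade, had intensities of 7433.28, 7582.11 and 7484.01 on the GFP+ arrays, against 1731.33, 1363.85 and 1368.45 on the RFP+ arrays. The GFP+ arrays were nearly equal, with a coefficient of variation of 1.01%, and RFP+ replicate 1 stood above the other RFP+ arrays. In GFP+ progenitors Pax6 was 5.03-fold higher (log2 difference 2.33 ± 0.20 SE, 95% interval 1.91 to 2.75, limma adjusted p = 3.03e-08). Of all genes tested, 1.15% had a difference at least as large in that direction. The RFP+ mean was 19.8% of the GFP+ mean.

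Insm1 (probe set 10476814), the zinc finger factor that promotes the formation of intermediate progenitors, had intensities of 4682.65, 5746.8 and 4251.85 on the GFP+ arrays, against 3563.32, 3160.91 and 2897.77 on the RFP+ arrays. It was bright in both populations, and the lowest GFP+ array stood only 1.19-fold above the highest RFP+ array. Its log2 difference was 0.60 ± 0.21 (SE, 95% interval 0.17 to 1.03, limma adjusted p = 0.033), or 1.52-fold higher in GFP+ progenitors. This was the smallest difference of the 6 genes, and 13% of all genes had a difference at least as large in that direction. The RFP+ mean was 65.5% of the GFP+ mean. The call ended when any array except GFP+ replicate 3 was left out, with adjusted p of 0.0518 without GFP+ replicate 1, 0.117 without GFP+ replicate 2, 0.0527 without RFP+ replicate 1, 0.0868 without RFP+ replicate 2 and 0.116 without RFP+ replicate 3. The log2 difference stayed between 0.48 and 0.70 in all 15 alternatives, with adjusted p from 0.00254 to 0.117.

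Eomes (probe set 10589994), the T-box factor that defines intermediate progenitors, had intensities of 10266.62, 11106.7 and 10653.87 on the GFP+ arrays, against 4427.48, 3591.75 and 3335.68 on the RFP+ arrays. Every GFP+ array was above every RFP+ array, the closest of them 2.32-fold apart, and RFP+ replicate 1 was again the highest of its group. In GFP+ progenitors Eomes was 2.83-fold higher (log2 difference 1.5 ± 0.20 SE, limma adjusted p = 7.92e-06). The RFP+ mean, 3785.0 ± 571.0 (SD, n = 3), was 35.5% of the GFP+ mean and 18.1 times the 95th percentile over olfactory receptor genes, used here to mark the level of signal near background.

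**Figure D1:**
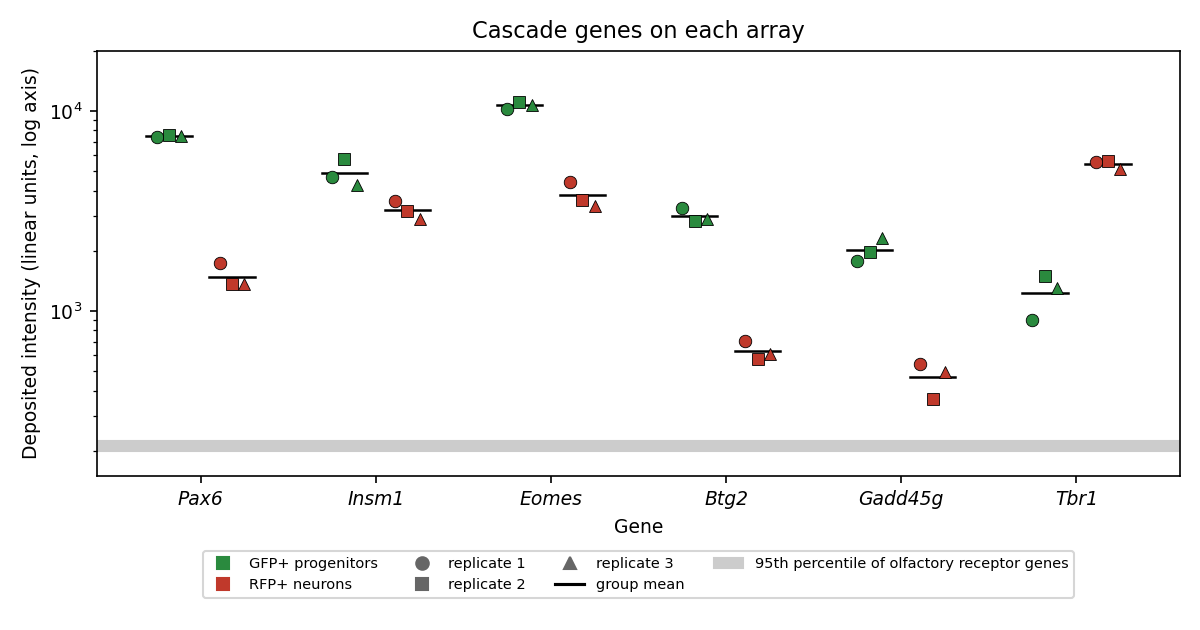
Deposited intensity (log axis) of the 6 cascade genes on each array, with GFP+ progenitors in green to the left of RFP+ neurons in red, replicate numbers as symbols, group means as black bars and the 95th percentile of olfactory receptor genes as a grey band. The groups do not overlap for any gene, Insm1 has the narrowest gap, and RFP+ replicate 1 (red circles) is the highest RFP+ array for the 5 genes that were higher in GFP+.

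Btg2 (probe set 10357875), the antiproliferative gene of neuron-producing divisions, had intensities of 3292.37, 2807.35 and 2878.25 on the GFP+ arrays, against 710.01, 577.6 and 607.93 on the RFP+ arrays. Replicate 1 was the highest array of each group. In GFP+ progenitors Btg2 was 4.65-fold higher (log2 difference 2.22 ± 0.20 SE, 95% interval 1.80 to 2.64, limma adjusted p = 5.12e-08). The RFP+ mean was 21.1% of the GFP+ mean.

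Gadd45g (probe set 10405211), a growth arrest gene, had intensities of 1774.95, 1984.15 and 2317.18 on the GFP+ arrays, against 545.97, 362.55 and 493.27 on the RFP+ arrays. Among the RFP+ groups of the 6 genes its arrays varied the most, with a coefficient of variation of 20.2%, but the lowest GFP+ array was still 3.25-fold above the highest RFP+ array. The GFP+ level was 4.26-fold higher (log2 difference 2.09 ± 0.21 SE, 95% interval 1.64 to 2.54, limma adjusted p = 2.52e-07). The RFP+ mean was 23.1% of the GFP+ mean and, at 467.3 ± 94.4 (SD, n = 3), the closest of the 6 to the olfactory receptor guide, 2.24 times its 95th percentile.

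Tbr1 (probe set 10472313), the deep-layer neuron factor, had intensities of 899.1, 1499.34 and 1301.93 on the GFP+ arrays, against 5581.63, 5602.74 and 5116.72 on the RFP+ arrays. The RFP+ arrays were close together, whereas GFP+ replicate 1 lay below the other GFP+ arrays by more than the RFP+ arrays differed among themselves on the log2 scale. The log2 difference was -2.15 ± 0.22 (SE, 95% interval -2.61 to -1.70, limma adjusted p = 2.14e-07), so that Tbr1 was 4.45-fold lower in GFP+ progenitors. Of all genes tested, 0.727% had a difference at least as large in that direction. The GFP+ mean was 22.7% of the RFP+ mean and stood 5.74 times above the 95th percentile of olfactory receptor genes, so Tbr1 signal was measured in the GFP+ population as well.

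**Figure D2:**
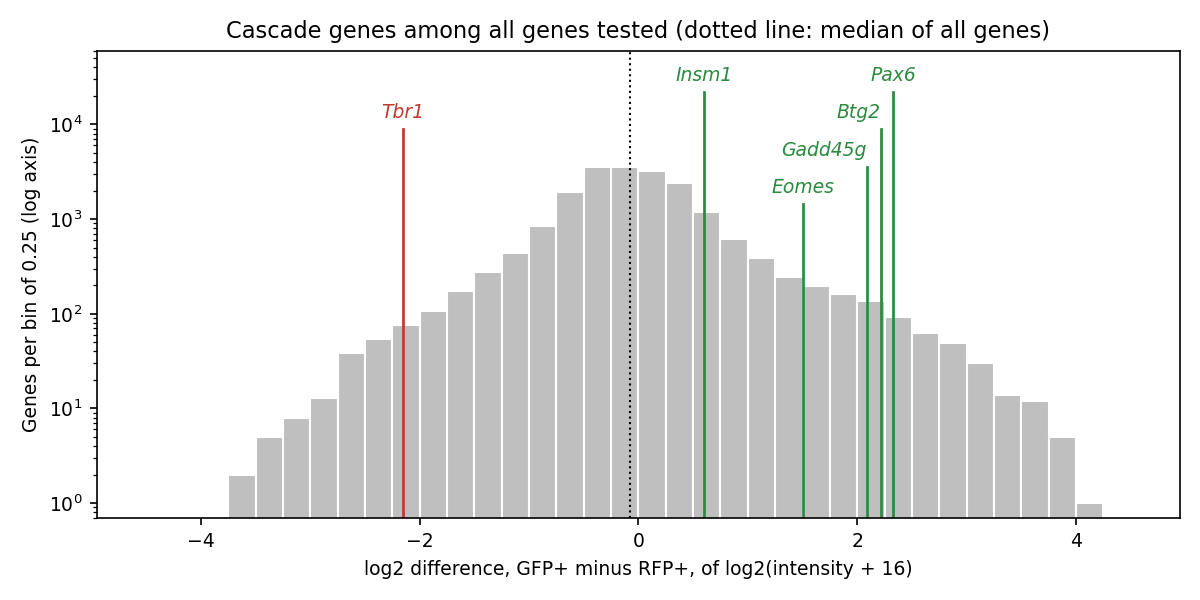
Distribution of the log2 difference, GFP+ minus RFP+, over 19938 genes (grey bars, number of genes on a log axis), with a line for each of the 6 cascade genes, green for higher in GFP+ and red for higher in RFP+. Pax6, Btg2 and Gadd45g lie far out on the GFP+ side at 2.33, 2.22 and 2.09, Insm1 lies near the bulk at 0.60, and Tbr1 lies on the RFP+ side at -2.15.

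The size of the difference was also compared between the genes. For each of 15 pairs of genes the log2 difference of one gene minus that of the other was computed from the values on each array, and an exact permutation test over arrays (two-sided, 3 against 3) was run, whose smallest possible p is 0.1. In 12 pairs the GFP+ and RFP+ arrays did not overlap, and these pairs reached that smallest p (Benjamini-Hochberg adjusted over 15 pairs, 0.125), so this test cannot place any pair past 0.05 and the differences between genes are given as measured sizes. Pax6 minus Eomes was 0.83 ± 0.04 log2 (SE, n = 3 arrays a group; exact p = 0.1), or 1.78-fold. Insm1 minus Eomes was -0.90 ± 0.11 log2 (exact p = 0.1). Eomes minus Btg2 was -0.72 ± 0.12 log2 (exact p = 0.1). The related T-box genes Eomes and Tbr1 were 3.66 ± 0.21 log2 apart in their response, or 12.6-fold (exact p = 0.1). For Pax6, Btg2 and Gadd45g the arrays overlapped in each pair. Pax6 minus Btg2 was 0.11 ± 0.09 log2 (exact p = 0.3), Pax6 minus Gadd45g was 0.24 ± 0.16 log2 (exact p = 0.2) and Btg2 minus Gadd45g was 0.13 ± 0.20 log2 (exact p = 0.6). The last of these changed sign without GFP+ replicate 1 (-0.03).

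Within the RFP+ group, replicate 1 was the highest array for Pax6, Insm1, Eomes, Btg2 and Gadd45g, by 0.16 to 0.24 log2 above the group mean. Of the 10 progenitor markers only 2, the stem cell factor gene Sox2 and the intermediate filament gene Vim, were highest on that array, while 2 were highest on RFP+ replicate 2 and 6 on RFP+ replicate 3. Their summed intensity on RFP+ replicates 1, 2 and 3 was 10418.6, 9739.2 and 9861.5, and without Vim it was 6132.2, 6337.2 and 6126.3. The progenitor markers as a list did not share the pattern of the 5 genes, but some other genes did. Every inhibitory neuron marker was highest on RFP+ replicate 1 (summed intensity 16222.6, 12718.0 and 6404.8 on replicates 1, 2 and 3). The Cajal-Retzius and subplate sums were highest there too, and the sums of the remaining lists of other cells were not. Of the intermediate progenitor list, Neurog1, Neurog2, Neurod1, Dll1, Dll3, Mfng, Sstr2, Rhbdl3 and Nhlh1 were highest there, and the rest were not. Within the GFP+ group, Tbr1 was lowest on replicate 1, and the proneural gene Neurod1 was lowest on that array too, at 479.07 against 1986.45 and 1316.75. The summed intensity of 15 early pan-neuronal genes was 34948.8 on GFP+ replicate 1, against 39092.4 on GFP+ replicate 2 and 34559.3 on GFP+ replicate 3. Bright genes weigh most in this sum, and the brightest, Tubb3, was highest on GFP+ replicate 1 (8473.71, against 7186.58 and 5372.1). Rbfox3, Snap25, Nefm, Neurod2 and Neurod6 were lowest on that array, as Tbr1 was, and the other genes of the list were not.

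The labelled identities were checked against their markers. All 10 progenitor markers were higher in GFP+ progenitors (median log2 difference 2.22), among them Sox2 at 3.67-fold and Nes at 5.23-fold, and all 15 early pan-neuronal genes were higher in RFP+ neurons (median -1.55), among them Tubb3 and Dcx, genes of the neuronal microtubule cytoskeleton, at 1.91-fold and 1.67-fold. The RFP+ mean was 11.5% to 57.1% of the GFP+ mean over the progenitor markers (median 21.2%), a range that takes in Pax6, Eomes, Btg2 and Gadd45g, while Insm1 at 65.5% lay above it. The GFP+ mean was 8.61% to 64.7% of the RFP+ mean over the pan-neuronal genes (median 33.9%), and Tbr1 lay within that range. Leaving out GFP+ replicate 1 together with RFP+ replicate 1 took Dcx to a limma adjusted p of 0.0594.

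Markers of other cells also moved with the groups. Of 9 endothelial markers, 9 were higher in the GFP+ arrays (median 2.32), with a summed intensity of 2072.9 to 6589.3 on GFP+ arrays against 755.8 to 966.1 on RFP+ arrays. This sum was 3.18-fold apart between GFP+ arrays and rose from replicate 1 to 3 (2072.9, 4586.3 and 6589.3). On the same arrays the coefficients of variation of the cascade genes ran from 1.01% for Pax6 to 24.8% for Tbr1. Among them only Gadd45g rose in the same order (1774.95, 1984.15 and 2317.18). Of 10 pericyte and mural markers 8 were higher in GFP+ arrays (median 2.87, summed intensity 5848.3 to 7479.2 against 1221.8 to 1341.9), with Tagln dim on all arrays. Of 7 oligodendrocyte lineage markers 5 were higher there (median 2.73, 1687.8 to 2486.2 against 606.2 to 832.2). Of 10 inhibitory neuron markers 2 were higher in GFP+ arrays (median 0.51), a share near that of all genes. In this list 1 passed without RFP+ replicate 3 and 4 without RFP+ replicate 1. Their summed intensity was 12542.3 to 16138.0 on GFP+ arrays and 6404.8 to 16222.6 on RFP+ arrays, so the groups overlapped. Among RFP+ arrays this sum was lowest on replicate 3, as were Insm1, Eomes and Tbr1, the last between 5116.72 and 5602.74. The part of these cells in the values of the cascade genes was not tested. Dim means under the 95th percentile of olfactory receptor genes on every array, and no marker of any list was at 0 on any array.

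Cajal-Retzius cells, early-born neurons of the cortical surface, and subplate neurons are known to express Tbr1 as well. Of 9 Cajal-Retzius markers 7 were higher in RFP+ neurons (median -1.77), with a summed intensity of 1426.3 to 1797.5 on GFP+ arrays against 3877.0 to 5633.0 on RFP+ arrays, and Lhx1 was dim on all arrays. RFP+ replicate 3 was lowest both for this sum and for Tbr1. Of 5 subplate markers 2 were higher in GFP+ arrays and 2 in RFP+ arrays (median -0.41, summed intensity 4185.8 to 4538.1 against 2869.6 to 4364.1), and Cplx3 was dim on all arrays. Lpar1 weighed most in the GFP+ sum, with a mean of 2649.0 in GFP+ and 269.7 in RFP+, and Nr4a2 was also higher in GFP+. Nxph4 (mean 804.8 in GFP+, 1899.5 in RFP+) and Hs3st4 (161.7 in GFP+, 1044.7 in RFP+) went the other way, so this sum follows Lpar1 more than the list. The part of these cells in the Tbr1 values was not tested. Of 10 microglial and macrophage markers 1, Trem2, was higher in RFP+ arrays (median -0.26, summed intensity 1571.5 to 2040.2 against 1709.4 to 2078.8), and 2 passed without GFP+ replicate 1. Trem2 was itself dim on all arrays, as were Aif1 and Tyrobp. Of 4 red cell markers 0 passed limma (1 at an unadjusted p under 0.05; median 0.34, 533.6 to 1312.1 against 468.4 to 695.5; Hemgn dim), and 1 passed without GFP+ replicate 1. Of 6 choroid plexus markers 1, Clic6, was higher in RFP+ arrays (median -0.19, summed intensity 698.3 to 833.9 against 798.4 to 1957.7). Clic6 was dim on all arrays, as were Aqp1 and Otx2. The highest sum was on RFP+ replicate 3, where Ttr was 1203.64, against 11.51 and 41.31 on RFP+ replicates 1 and 2. The count was 0 when GFP+ replicate 1, GFP+ replicate 2 or RFP+ replicate 3 was left out, and 2 without RFP+ replicate 1.

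Other transcription factors of apical progenitors, the cells in which Pax6 acts, were higher in GFP+ progenitors with it. Of 18 measured, 16 were higher there and 2 did not pass, with a median log2 difference of 2.19, beside -0.08 over all genes. The largest were Tcf7l1, a Wnt pathway repressor, at 7.57-fold (log2 difference 2.92 ± 0.21 SE, limma adjusted p = 3.71e-09), the Notch effector Hes1 at 7.08-fold and Sox21 at 6.81-fold. The RFP+ means of Tcf7l1 (202.6) and Hes1 (118.2) lay near or below the olfactory receptor guide, so these sizes and their order depend on the added 16. With log2(intensity + 64) the log2 differences were 2.67 for Tcf7l1, 2.43 for Hes1 and 2.68 for Sox21. Sox21 had intensities of 2682.75, 7279.86 and 4214.45 on GFP+ arrays, against 583.06, 752.31 and 558.05 on RFP+ arrays, a wide spread in the GFP+ group without overlap. Emx1 and Lhx2, cortical selector genes, had log2 differences of 0.53 and 0.47 (limma adjusted p = 0.058 and 0.0791). When replicates were paired by number, both passed (limma adjusted p = 0.0278 and 0.0416), which made it 18 of 18.

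Of 7 genes reported as Pax6 targets in the cortex, 4 were higher in GFP+ progenitors and 3 did not pass (median 2.12, beside 2.22 for the progenitor markers). Fabp7 is on both lists. Targets were not divided by the direction in which Pax6 acts on them, and Pax6 activity was not tested. Fabp7, the brain fatty acid binding protein gene of radial glia, was 5.63-fold higher (log2 difference 2.49 ± 0.21 SE, limma adjusted p = 1.78e-08). Hmga2, a chromatin protein gene, was 5.07-fold higher, with an RFP+ mean of 63.1, below the olfactory receptor guide (log2 difference 1.82 with log2(intensity + 64), against 2.34 as reported), and Sfrp2, a secreted Wnt modulator gene, was 4.69-fold higher. Neurog2, the proneural gene that links Pax6 to Eomes, had intensities of 7386.02, 7282.26 and 7870.73 on GFP+ arrays, against 2112.88, 1586.91 and 1508.61 on RFP+ arrays, and was 4.34-fold higher (limma adjusted p = 1.33e-07). Its highest RFP+ array was replicate 1, as for Pax6 and Eomes. Fut9 and Cdk4 had log2 differences of -0.07 ± 0.24 and 0.01 ± 0.21 (SE). The remaining target, Dkk3, was higher in GFP+ progenitors but narrowly missed the threshold. With the replicate number as a block, or with quantile normalization, 5 of the targets passed.

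Genes of intermediate progenitors other than the 6 were mostly higher in GFP+ progenitors. Of 17 measured, 11 were higher there, 2 were higher in RFP+ neurons and 4 did not pass, with a median log2 difference of 1.15. The largest were the proneural genes Neurog1 at 7.0-fold (log2 difference 2.81 ± 0.24 SE), Neurod4 at 4.41-fold and Neurog2. Neurog1 and Neurod4 had RFP+ means of 159.4 and 208.0, near or below the olfactory receptor guide, and log2 differences of 2.50 and 1.93 with log2(intensity + 64). Neurod1, which acts later than Neurog2 and is also expressed in young neurons, went the other way at 3.34-fold higher in RFP+ neurons (log2 difference -1.74 ± 0.34 SE, limma adjusted p = 0.000475). That call ended with an intensity trend and robust moderation (adjusted p = 0.0953), and the log2 difference was -1.06 without GFP+ replicate 1 and RFP+ replicate 1. Sstr2, a somatostatin receptor gene, had 4463.35, 6558.09 and 5284.51 on GFP+ arrays, against 5347.62, 4688.02 and 4992.35 on RFP+ arrays, so its groups overlapped.

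**Figure D3:**
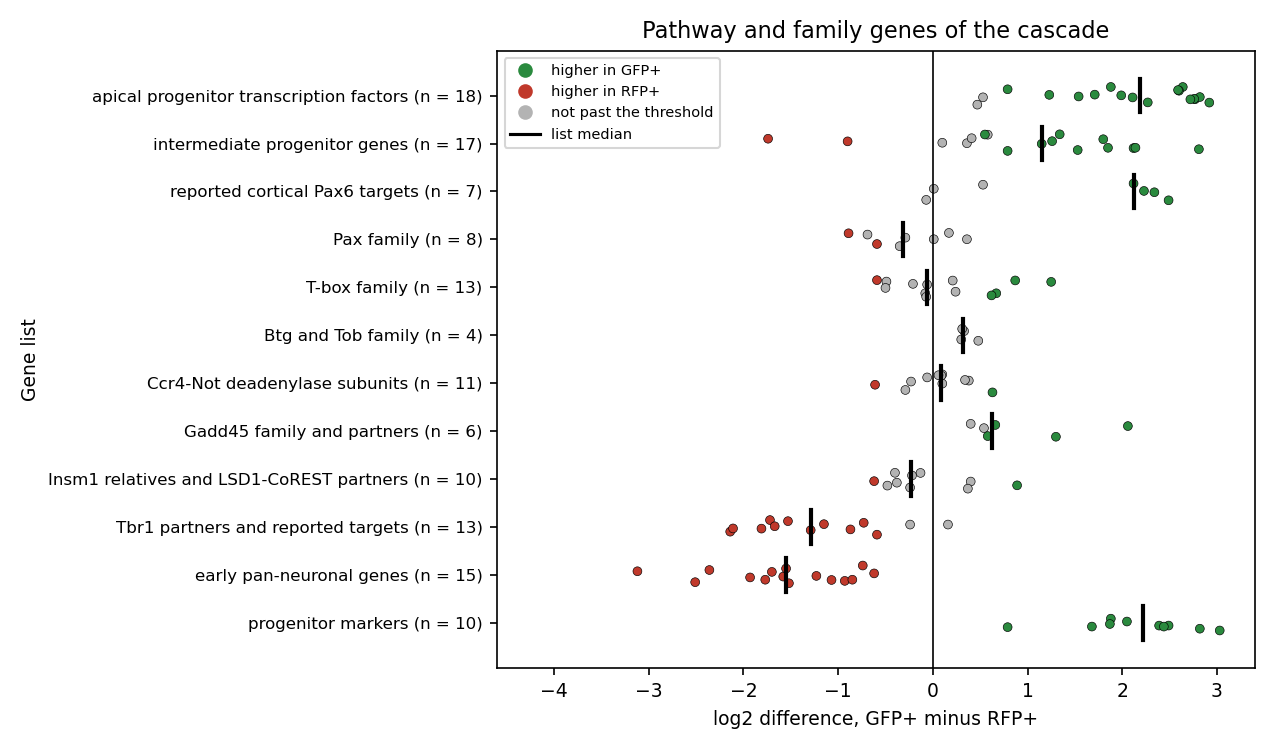
Log2 difference, GFP+ minus RFP+, of each measured gene of 12 lists (rows), with points coloured by the limma call, vertical jitter added for legibility and a black bar at the list median. Apical progenitor factors centre at 2.19, intermediate progenitor genes at 1.15, and Tbr1 partners and targets at -1.29. The Pax, T-box and Ccr4-Not lists lie on both sides of 0, and the Btg and Tob list lies at 0.30 to 0.48.

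Genes known as partners or targets of Tbr1, or that act beside it in deep-layer neurons, were lower in GFP+ progenitors. Of 13 measured, 11 were higher in RFP+ neurons and 2 did not pass (median -1.29, beside -1.55 for the early pan-neuronal genes). The list was not split by the direction in which Tbr1 acts on each gene, and Tbr1 activity was not tested. Reln, the secreted guide of neuronal migration and a reported Tbr1 target, was lower in GFP+ progenitors with a log2 difference of -2.14 ± 0.21 (SE, limma adjusted p = 1.87e-07) and is also on the Cajal-Retzius list. Sox5, a deep-layer factor, was 4.32-fold higher in RFP+ neurons, and Grin2b, an NMDA receptor subunit gene, 3.50-fold higher. Fezf2 and Bcl11b, which specify subcerebral neurons, were 2.44-fold and 3.18-fold higher in RFP+ neurons, and Tle4, of corticothalamic neurons, 2.88-fold. Foxp2 and Ntng1 had log2 differences of -0.24 and 0.16 (limma adjusted p = 0.458 and 0.585). Genes of this paragraph beyond Reln, Sox5 and Grin2b were picked after their values were seen.

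Relatives of the 6 genes were read beside the 30% of all genes that passed. Among 8 other Pax genes 2 passed, both higher in RFP+ neurons: Pax9, dim on all arrays (69.1 ± 26.6 in GFP+, 136.8 ± 7.1 in RFP+, SD, n = 3) and Pax2 (163.6 ± 22.3 in GFP+, 253.4 ± 32.4 in RFP+), slightly above the guide in RFP+. The Pax2 call was lost, leaving 1, without GFP+ replicate 3 or any 1 of the RFP+ arrays. Among 13 other T-box genes 5 passed, 4 of them higher in GFP+ arrays, led by Tbx2 at 2.38-fold (397.6 ± 41.9 in GFP+, 157.5 ± 14.4 in RFP+), Tbx18 and Tbx3, while Tbx19 was lower in GFP+ arrays (63.7 ± 8.3 in GFP+, 103.8 ± 2.9 in RFP+). Leaving out any array except GFP+ replicate 2 took this count to 3. Tbx18, Tbx19 and Tbx21, the last of which belongs to the Tbr1 and Eomes subfamily, were dim on all arrays.

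Btg1 and Tob1, antiproliferative relatives of Btg2, had log2 differences of 0.33 ± 0.21 and 0.30 ± 0.21 (SE). Of 4 Btg and Tob genes measured 0 passed limma (1 at an unadjusted p under 0.05), and 1 passed without GFP+ replicate 1. Of 11 subunits of the Ccr4-Not deadenylase, the complex to which Btg proteins bind, 2 passed: Cnot9 was 1.54-fold higher in GFP+ progenitors and Cnot7 1.53-fold higher in RFP+ neurons. Both were lost without GFP+ replicate 1, GFP+ replicate 2, RFP+ replicate 1 or RFP+ replicate 3, and with log2(intensity + 1).

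Gadd45a, a paralogue of Gadd45g, was 1.58-fold higher in GFP+ progenitors (limma adjusted p = 0.0411), and Gadd45b was dim on all arrays. Of the 6 genes of this family and its binding partners that were measured, 4 were higher in GFP+ progenitors, led by the mitotic kinase gene Cdk1 at 4.16-fold and the replication clamp gene Pcna at 2.46-fold, and 2 passed when either RFP+ replicate 2, RFP+ replicate 3 or GFP+ replicate 2 was dropped. Gadd45a was among those lost in each case.

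Insm1 represses genes together with the LSD1 and CoREST proteins. Of 10 relatives and partners 2 passed: Hdac1, a histone deacetylase gene, was 1.85-fold higher in GFP+ progenitors (limma adjusted p = 0.00153) and its paralogue Hdac2 was 1.54-fold higher in RFP+ neurons (limma adjusted p = 0.0324). The Hdac2 call was lost, leaving 1, without GFP+ replicate 1, GFP+ replicate 2, RFP+ replicate 1 or RFP+ replicate 3. Kdm1a, which encodes LSD1, had a log2 difference of -0.48 ± 0.22 (SE, limma adjusted p = 0.106, and 0.0335 with the replicate number as a block), and Insm2 was dim on all arrays.

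The genes with the most similar profile over the 6 arrays were found by the root mean square distance between log2 values centred on each gene's mean. With 6 arrays in 2 groups the distance mostly reflects the group difference, and 114 to 2033 genes lay within 0.25 log2 of a cascade gene. The nearest to Pax6 were Pter, the growth hormone receptor gene Ghr and Sfrp2 (distances 0.0572, 0.0809 and 0.0917). Nearest to Insm1 were Sbds, a ribosome maturation gene, Npl and Tmem179b (0.0397, 0.0552 and 0.0590). The kinetochore gene Cenph, the chromatin remodeller gene Chd1l and Stxbp6 lay nearest to Eomes (0.0671, 0.0693 and 0.0802). Btg2 had the replicative helicase gene Mcm2, Phf19 and the glycine decarboxylase gene Gldc as its neighbours (0.0862, 0.0969 and 0.110). Gadd45g had the filamin gene Flnc, the mitotic kinase gene Pbk and Ecm2 (0.0904, 0.106 and 0.109). The neighbours of Tbr1 were the ephrin receptor gene Ephb1, Sgip1 and the synaptic adhesion gene Lrrtm4 (0.0657, 0.0701 and 0.0853). Pter, Ghr, Npl, Chd1l, Stxbp6, Phf19, Flnc and Ecm2 had RFP+ means below the olfactory receptor guide. Their distances therefore depend on the constant added to the intensity. With log2(intensity + 64) the log2 differences of Pter, Ghr and Sfrp2 were 1.75, 1.85 and 2.16, against 2.29 for Pax6. Those of Flnc, Pbk and Ecm2 were 1.55, 1.73 and 1.23, against 1.98 for Gadd45g.

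**Figure D4:**
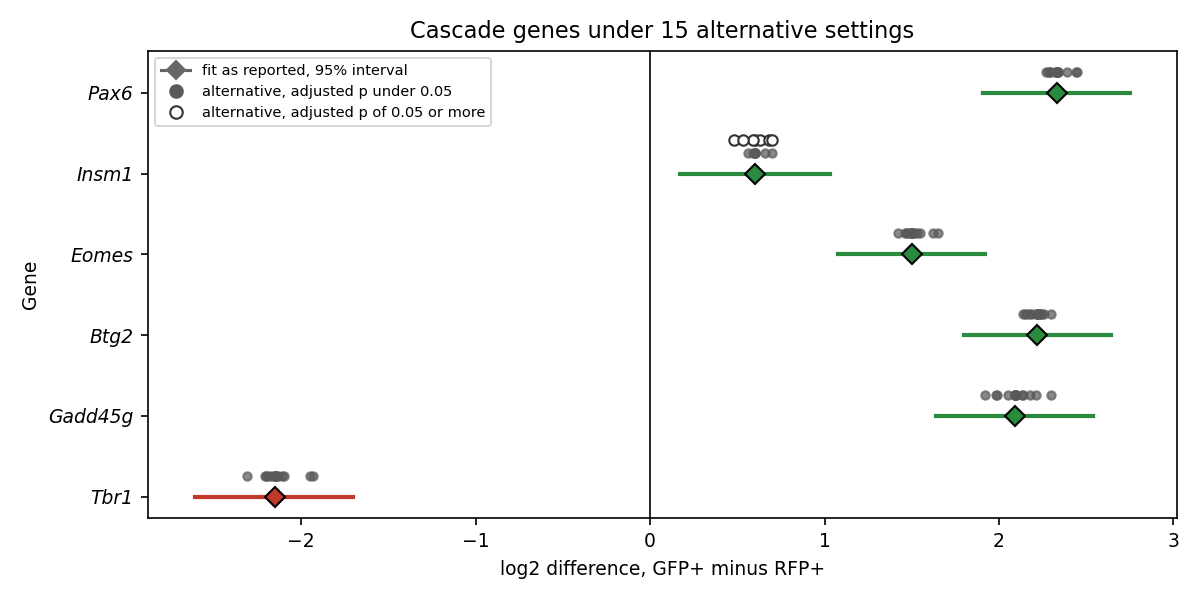
Log2 difference, GFP+ minus RFP+, of the 6 cascade genes as reported (diamonds, with 95% intervals) and under 15 alternative settings (grey circles where the limma adjusted p was under 0.05, open circles where it was not). Pax6, Eomes, Btg2, Gadd45g and Tbr1 kept their call in all 15, and Insm1 lost it in 7.

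The size of the differences moved little with the settings tried. Over 15 alternatives the log2 difference of Pax6 ran from 2.27 to 2.45, of Eomes from 1.42 to 1.65, of Btg2 from 2.14 to 2.30, of Gadd45g from 1.92 to 2.30 and of Tbr1 from -2.31 to -1.93. The highest limma adjusted p of these 5 genes over the alternatives was 0.000264, for Eomes. Insm1 alone lost its call, in 7 of 15.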

How the data were processed

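RNA of 3 GFP+ and 3 RFP+ samples was measured on 1 array each. The deposited values are the authors' processed intensity per probe set on a linear scale, made with the Affymetrix Expression Console per the submitters' processing notes. Its version, background correction, normalization and summarisation are not given in the sources used here. Array medians were 210.31 to 221.1. Of 35557 probe sets, 21789 had 1 gene symbol, 1621 several and 12147 were unnamed here. Per gene the probe set with the highest mean was kept, giving 19938 genes. Values were taken as log2(intensity + 16) and fitted by lmFit and eBayes of limma 3.58.1 (R 4.3.3, prior degrees of freedom 15.4), two-sided, Benjamini-Hochberg adjusted over all genes, threshold 0.05. The number of arrays limits the precision, and the median SE was 0.215. The fit was tested on simulated data. Tables were made with pandas 2.3.3 and numpy 2.4.6 under Python 3.11.15, and figures with matplotlib 3.10.9.

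The genes, lists and alternatives were chosen with earlier results of these data known. The text names the 6 genes, the 3 nearest profiles of each, and per pathway or family list the 3 largest passing genes in the majority direction and the largest passing the other way. Further genes, named for their place in the pathway, were chosen after their values were seen. GFP+ and RFP+ arrays of the same replicate number deviated together (correlations across genes 0.204, 0.288 and 0.361), against -0.266 to 0.00416 for different numbers, although deviations within a group sum to 0. With 3 arrays a group and few ways to match them, this check cannot establish that the numbers pair the samples. What the numbers stand for is not stated in the labels. The fit without pairing was kept, and the paired fit was an alternative.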

Additional observations from a re-analysis of the deposited data

How the results depend on the processing

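Alternatives were quantile normalization, median centring, log2(intensity + 1), log2(intensity + 64), leaving out the dimmest 30% of genes, averaging the probe sets of each gene, an intensity trend with robust moderation, the replicate number as a block, leaving out each array, and leaving out both arrays numbered 1. All 6 cascade genes kept their direction in each, and 5 kept their call. Insm1 missed the threshold with log2(intensity + 1) (0.60, adjusted p = 0.0508) and without both arrays numbered 1 (0.70, adjusted p = 0.0793), and its log2 difference was 0.48 to 0.70 without 1 array. Btg2 minus Gadd45g was -0.03 to 0.25 without 1 array and -0.07 without both arrays numbered 1. With the replicate block, 1 red cell marker passed, and 3324 genes were higher in GFP+ and 4047 in RFP+. Among 64 other genes with values in the text or chosen by the naming rule, the block moved Npl, Emx1, Lhx2 and Kdm1a past the threshold and changed no other call. Without both arrays numbered 1, 1848 genes were higher in RFP+ neurons, and the calls were 1 Pax gene, 2 T-box genes, 0 Ccr4-Not subunits, 2 Gadd45 genes, 1 Insm1 relative, 2 microglial and 1 red cell markers. With an intensity trend 4 Insm1 relatives, 4 inhibitory neuron and 0 choroid plexus markers passed. With log2(intensity + 1) 0 Ccr4-Not subunits and 1 Insm1 relative passed, and with log2(intensity + 64) 4 inhibitory neuron markers. Quantile normalization left 1 Ccr4-Not subunit, 1 Insm1 relative and 0 choroid plexus markers. Without the dimmest 30% of genes, which takes dim members out before the test, 1 Pax gene, 1 red cell and 0 choroid plexus markers passed. Leaving out 1 array gave 1 to 3 Pax, 3 to 5 T-box, 0 to 1 Btg and Tob, 0 to 2 Ccr4-Not, 2 to 4 Gadd45, 1 to 2 Insm1-related, 1 to 4 inhibitory neuron, 1 to 2 microglial, 0 to 1 red cell and 0 to 2 choroid plexus calls. Of these 64 genes 46 kept call and direction under all alternatives and 18 did not. Among genes that did not pass, the sign varied when 1 array was left out for Sstr2 (-0.04 to 0.23), Fut9 (-0.27 to 0.16) and Cdk4 (-0.10 to 0.13), and it also turned for Fut9 without both arrays numbered 1 (0.10) and for Cdk4 with median centring (-0.03). The cause of these changes was not tested, and fits with fewer arrays have less information.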
